A study of Mus musculus with 8 samples.

Results

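The miRNAs described here are the 107 mouse miRNAs on an Agilent miRNA array whose names carry a number of 680 or more, with any letter or arm suffix and without the asterisk of a passenger strand. miR-758, miR-770, miR-1193 and miR-1197 were left out because they lie in the imprinted Dlk1-Dio3 locus. The miRNAs kept were not checked by position against this locus. Those kept include miR-882 (chr12:109682207-109682228, build GRCm38.p6) and miR-1906 (chr12:109544588-109544609, with a further entry on chrX). All 107 were measured on each of the 8 arrays, and they make up part of 611 mouse miRNAs, leaving 504 others. The samples were TEBs, the growing tips of the ductal tree (3 arrays), mature ducts (2 arrays) and distal stroma (3 arrays), cut under a fluorescence microscope from the mammary glands of 5-week-old female beta actin-GFP reporter mice. All groups carried the reporter, whose promoter is active in most cell types and marks no single one, the mice were FVB/n, and the labels name no treatment. Nothing in the labels says whether the arrays of a tissue came from separate mice or pools, so the p-values below measure the spread between these arrays, which may be technical.

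miRNAs are numbered in the order in which they were registered, so that high numbers mark late annotations. Many late entries came from deep sequencing or large cloning screens, are expressed at low levels or in few tissues, and are less well characterised than the miRNAs with low numbers. A few have unusual origins. miR-877 and miR-1224 are mirtrons, which are short introns that splicing releases as hairpins without the nuclease Drosha, and miR-720 is now regarded as a fragment of a tRNA and has been withdrawn from miRBase. A mature miRNA finds its targets mainly through its seed, bases 2 to 8.

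RefSeq sequences (build GRCm38.p6) are shown for the miRNAs that the results below turn on, where the table held an entry, with the seed in capitals. The array names miR-1224, miR-698 and miR-702 without an arm, so both arms are given for these.
miR-1224-5p: gUGAGGACuggggagguggag
miR-1224-3p: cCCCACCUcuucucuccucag
miR-698-5p: uGUGGGUGggacagggauguu
miR-698-3p: cAUUCUCGuuuccuucccu
miR-702-5p: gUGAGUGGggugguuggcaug
miR-702-3p: uGCCCACCcuuuaccccgcucc
miR-1894-5p: cUCUCCCCuaccaccugccucu
miR-690: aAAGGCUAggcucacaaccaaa
miR-1892: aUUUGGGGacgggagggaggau
miR-1895: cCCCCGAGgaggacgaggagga
miR-1904: gUUCUGCUccucuggagggagg
miR-697: aACAUCCUgguccuguggaga
The printed sequences share no seed with each other. Among all 62 miRNAs of the group with an entry of exactly the same name (57.9% of 107), the only shared seed was AACUGCA, in miR-883a-3p and miR-883b-3p, and neither was detected on any array. With so few matched, a check of base composition over the whole group is void. The table held no mature entry for miR-689, miR-709, miR-720, miR-1196 and miR-1897-5p.

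In that build the miR-1224 hairpin lies at chr16:20604452-20604536 (plus strand) within the span of the gene Vwa5b2. The mature sequences of miR-1894-5p (chr17:35917899-35917920, plus strand), miR-690 (chr16:28599940-28599961, minus strand) and miR-1904 (chr13:109903819-109903840, plus strand) lie within the spans of Ppp1r10, Fgf12 and Pde4d. miR-1892 (chr12:54645943-54645964, minus strand) and miR-1895 (chr3:134240515-134240536, minus strand) lie within the spans of Sptssa and Cxxc4. The hairpins of miR-698 (chr4:124743781-124743889, plus strand) and miR-702 (chr5:136991433-136991541, plus strand) lie within Inpp5b and Plod3. All of these lie within the span of a protein-coding gene, but they are a selection of the detected miRNAs. No such gene spans the hairpin of miR-1897-5p or the mature sequences of miR-878-3p and miR-1906, which were also detected. Whether each is exonic or intronic was not analysed here.

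The epithelial markers matched the labelled tissues. All 8 epithelial miRNAs of the miR-200, miR-183 and miR-205 groups were detected on each array of both epithelial tissues and on none of stroma, where their summed unscaled signal was 0.0 to 4.4 units. No tissue was free of other cells: miR-126-3p (endothelium), miR-451 (red cells), 3 of 4 mesenchymal miRNAs (all but miR-145) and 2 of 3 leukocyte miRNAs (all but miR-150) were detected on every array of every tissue. The mesenchymal miRNAs were not highest in stroma. Their summed unscaled signal was 1972.0 to 2338.6 units there, beside 3003.5 to 3785.7 in TEBs and 4163.7 to 4358.0 in ducts. Between 142 and 169 of the 611 mouse miRNAs (23.2% to 27.7%) were detected per array. In such bulk samples fewer cells of a type and less RNA per cell cannot be told apart.

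Most of the late-numbered miRNAs were not detected in any tissue. The scanner software's detection flag was set on at least 1 array for 20 of the 107 (18.7%), and 87 (81.3%) were detected on none. For the 504 other mouse miRNAs the share detected on at least 1 array was 36.3%, and for the 375 of them without an asterisk and with a number under 680 it was 40.5%. Only 5 of the 107 (4.67%) were detected on all 8 arrays, namely miR-689, miR-709, miR-720, miR-1224 and miR-1904, against 20.4% of the other mouse miRNAs. The background-subtracted signals of the 87 undetected miRNAs ran from -48.4 to 22.9 units, and on each array 74 to 85 of the 107 had a signal below 0. An undetected signal is a bound on the level and does not show that a miRNA is absent.

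The numbers detected per array were close between the tissues and overlapped. The TEB arrays detected 13, 11 and 11 of the 107 miRNAs, the duct arrays 12 and 13, and the stroma arrays 11, 13 and 14. The means were 11.7 for TEBs and 12.5 for ducts (two-sided exact permutation test, p = 0.6, adjusted over 4 comparisons 0.93) and 12.7 for stroma (TEBs against stroma p = 0.7, adjusted 0.93). Ducts against stroma gave p = 1 and both epithelial tissues together against stroma p = 0.57, adjusted 0.93 (exact permutation tests, 8 arrays in all). The 10 arrangements of 3 against 2 arrays and the 20 of 3 against 3 cannot give a p below 0.1. The test of both epithelial tissues against stroma, with 56 arrangements, could have passed before adjustment. After adjustment over the 4 comparisons no test could have passed, so these tests show neither a difference nor its absence. The other mouse miRNAs ran from 26.0% to 31.0% per array, above the 10.3% to 13.1% of the late-numbered miRNAs on every array.

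**Figure D1:**
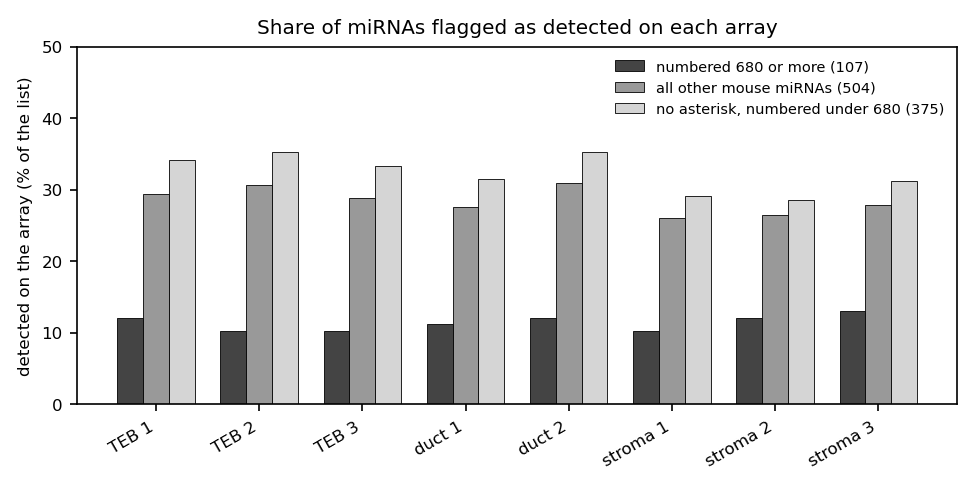
Share of miRNAs detected on each of the 8 arrays (y axis, percent of the list; x axis, array), for the 107 miRNAs numbered 680 or more, the 504 other mouse miRNAs and the 375 of these without an asterisk numbered under 680. The dark bars sit between 10.3% and 13.1% on every array and below both other bars, with no step between the tissues.

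The 20 detected miRNAs were spread unevenly over the numbers. Of the 42 miRNAs numbered from miR-680 to miR-721, 7 were detected on at least 1 array (16.7%) and 3 on all 8. Of the 35 numbered from miR-722 to miR-899, 3 were detected (8.57%) and none on every array of any tissue. The 12 numbered from miR-900 to miR-1299 gave 3 (25.0%) and the 18 with later numbers gave 7 (38.9%). The latest numbers thus held the highest share detected on at least 1 array, as a description without a test. On all 8 arrays they did not: their share was 5.56%, beside 7.14% for miR-680 to miR-721, 0% for miR-722 to miR-899 and 8.33% for miR-900 to miR-1299.

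Among lists with a known origin, the X-linked cluster of miRNAs known for expression in the testis had 14 members here. One of these, miR-878-3p, was detected, on 1 TEB array, and the unscaled signals of the 14 ran from -45.4 to 22.9 units. Both miRNAs listed here as mirtrons were detected, miR-1224 on all 8 arrays and miR-877 on 1 TEB array. Whether other late-numbered miRNAs are mirtrons was not checked.

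By tissue, 7 of the 107 miRNAs (6.54%) were detected on every TEB array, 11 (10.3%) on every duct array and 10 (9.35%) on every stroma array, beside 26.8%, 26.2% and 24.6% of the 504 others. The lowest count of the late-numbered miRNAs was thus in TEBs, where the others had their highest. The rule asks for 3 arrays in TEBs and stroma but only 2 in ducts. With a signal above 3 times its error in place of the flag, the TEB count rose from 7 to 11, so the low count depended on the detection rule. No miRNA was detected on every array of a single tissue and on no other array. With at least 1 array of a tissue as the rule, the counts were 16, 14 and 15. Detection on at least 1 array of a single tissue was then seen for 4 miRNAs in TEBs (miR-697, miR-877, miR-878-3p and miR-1906), none in ducts and 2 in stroma (miR-764-5p and miR-1190). These are 3.74%, 0% and 1.87% of the 107, beside 2.95%, 1.64% and 0.818% of all 611 mouse miRNAs. miR-698 was the only late-numbered miRNA detected on every duct and stroma array and on no TEB array (0.935%, beside 0.982% of all 611).

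**Figure D2:**
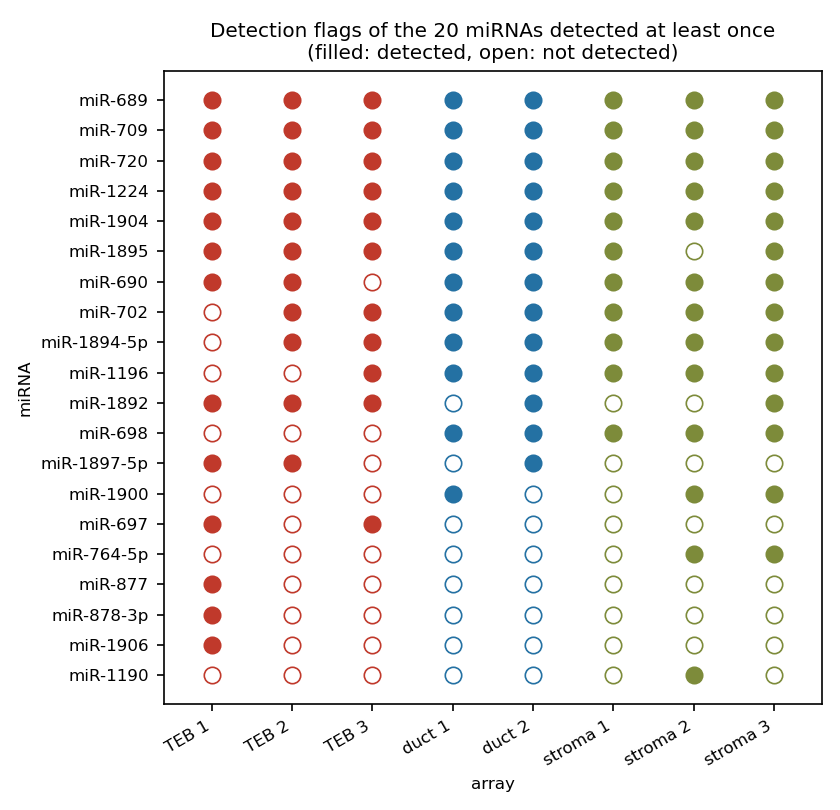
Detection flags of the 20 miRNAs detected on at least 1 array (y axis) on each array (x axis), filled where detected and open where not, red for TEBs, blue for ducts and green for stroma. The top 5 rows are filled on all 8 arrays, and the row of miR-698 is filled on every duct and stroma array and open on the 3 TEB arrays.

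Differences in level were tested for the 12 late-numbered miRNAs that at least 1 tissue showed on all of its arrays, within a fit over all 167 mouse miRNAs that met that rule. Signals were scaled so that the 75th percentile of the 108 mouse miRNAs detected on all 8 arrays was equal on each array (factors 0.75 to 1.36), values under 1 were set to 1 and log2 was taken. A difference below is one of mean log2 scaled signals from limma, with its standard error and a Benjamini-Hochberg adjusted p over the 167. Of the 12, 3 passed between TEBs and ducts (all higher in TEBs), 6 between TEBs and stroma (2 of them higher in TEBs and 4 lower) and 1 between ducts and stroma (lower in ducts). Over all 167 tested miRNAs 24.6%, 64.7% and 21.6% passed in these comparisons, or 41, 108 and 36 miRNAs.

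The count of 3 of 12 was thus near the share over all tested miRNAs, and the counts of 6 and 1 were below it. By direction, 11.4% of the 167 were higher in TEBs than in ducts and 13.2% higher in ducts; 20.4% were higher in TEBs than in stroma and 44.3% higher in stroma; 9.58% were higher in ducts than in stroma and 12.0% higher in stroma. The median difference of the 12 was -0.18, -0.06 and 0.04 on the log2 scale, beside -0.10, -0.28 and -0.09 over the 167. Scaling to the 75th percentile of all 611 miRNAs moved the medians over the 167 to 0.45, 0.12 and -0.25, and the miRNAs higher and lower from 19 and 22 to 24 and 6, from 34 and 74 to 38 and 28, and from 16 and 20 to 11 and 8. The same scaling left the 3 and 6 calls of the late-numbered miRNAs as counts, and took away the 1 between ducts and stroma.

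miR-1224 was higher in TEBs than in both other tissues. Its unscaled signal was 734.7, 696.1 and 698.0 units on the TEB arrays, 513.1 and 354.6 on the duct arrays, and 206.9, 230.6 and 281.0 on the stroma arrays. The 3 TEB arrays lay above all 5 others, and the duct and stroma arrays overlapped once scaled. The scaled means were 709.4 ± 44.2 in TEBs (SD, n = 3), 334.6 ± 70.9 in ducts (SD, n = 2) and 290.2 ± 86.2 in stroma (SD, n = 3). The mirtron was 2.14-fold higher in TEBs than in ducts (log2 difference 1.10, SE 0.26, limma adjusted p = 0.025) and 2.51-fold higher than in stroma (log2 difference 1.33, SE 0.23, limma adjusted p = 0.0034). Within the 2 rows of arrays on the slide the TEB-duct difference was 0.86 and 1.36 and the TEB-stroma difference 1.72 and 1.17. The TEB-duct call was lost without any 1 of the 5 TEB and duct arrays, with limma adjusted p from 0.051 to 0.09 and differences of 0.88 to 1.32, and also with all 611 miRNAs tested (0.1) and under the methods' test after adjustment (0.073), while the TEB-stroma call stood in all 23 alternatives.

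miR-689 was likewise higher in TEBs. The unscaled signals were 76.5, 64.2 and 71.5 units on the TEB arrays, 32.7 and 30.0 on the duct arrays, and 10.8, 9.9 and 22.9 on the stroma arrays. The tissues were separated except that 1 stroma array, at 31.1 after scaling, lay above both duct arrays at 24.5 and 24.1. On stroma arrays 1 and 2 the signal was the lowest flagged as detected on that array, with errors of 6.5 and 7.2 units. The error on duct array 1 was 11.0 units. miR-689 was 2.90-fold higher in TEBs than in ducts (log2 difference 1.54, SE 0.44, limma adjusted p = 0.049) and 4.42-fold higher than in stroma (log2 difference 2.14, SE 0.39, limma adjusted p = 0.0041). Within the slide rows the differences were 1.48 and 1.64 against ducts and 2.64 and 1.96 against stroma. The TEB-duct call was lost with the slide row as a covariate (limma adjusted p = 0.063), with all 611 miRNAs tested (0.16) and without any 1 of the TEB and duct arrays or stroma array 2 (0.056 to 0.18, with differences of 1.47 to 1.64). With a normexp background correction both calls stood, but the log2 differences were 0.59 against ducts and 0.37 against stroma. The fold sizes thus depended on how the background was treated.

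miR-1224 and miR-689 had a like pattern, as a description over the 8 arrays, which share one scaling. The tested miRNAs whose log2 signals correlated best with miR-1224 were miR-689 (Pearson r = 0.969), miR-28 (0.912) and miR-31 (0.909). Those closest to miR-689 were miR-1224, miR-28 (0.938) and miR-210 (0.921).

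miR-720, the tRNA-derived sequence, was lower in ducts than in both other tissues. The unscaled signals were 3203.3, 3095.2 and 2803.2 units on the TEB arrays, 2465.1 and 2419.7 on the duct arrays, and 3190.9, 2945.3 and 2124.6 on the stroma arrays. Unscaled, stroma array 3 lay below the ducts; scaled, both duct arrays (1848.7 and 1941.1) lay below all 6 others, which ran from 2890.3 to 3535.9. The scaled level was 1.60-fold higher in TEBs than in ducts (log2 difference 0.68, SE 0.12, limma adjusted p = 0.014) and 1.70-fold lower in ducts than in stroma (log2 difference -0.76, SE 0.12, limma adjusted p = 0.0038). This separation rested on the scaling: without scaling neither call stood (limma adjusted p = 0.22 and 0.58), and under the 75th percentile of all mouse miRNAs the duct-stroma call was also lost (0.12). Between TEBs and stroma the scaled means were 3028.4 ± 171.6 and 3228.9 ± 323.9 (SD, n = 3 each) and the difference did not pass. Without TEB array 2 or without duct array 1 the TEB-duct difference was 0.70 or 0.64 and missed the threshold (limma adjusted p = 0.053 and 0.088). The miRNA closest to it over the 8 arrays was miR-125a-5p, followed by miR-378* and miR-378 (Pearson r = 0.783, 0.73 and 0.725).

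**Figure D3:**
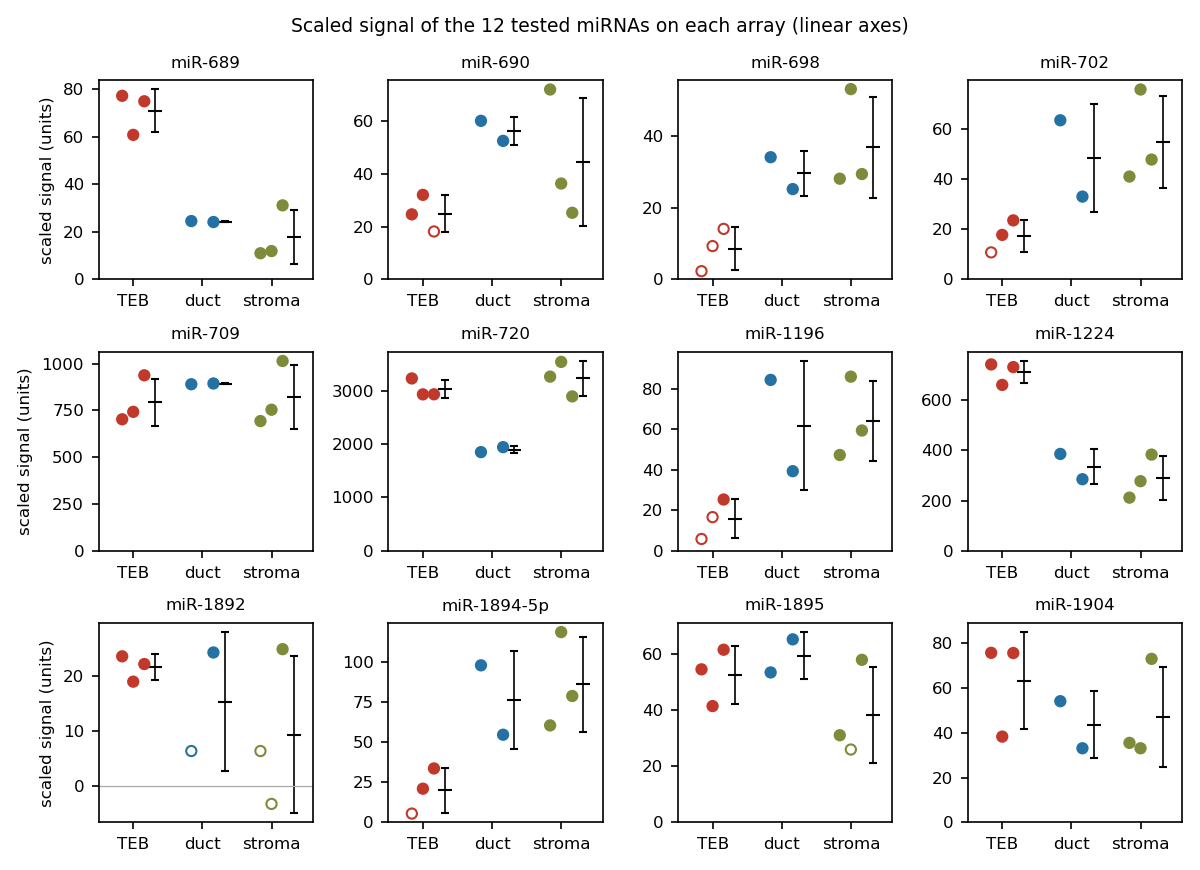
Scaled signal of the 12 tested miRNAs on each array (y axis, units on linear axes that differ between panels; x axis, tissue), with filled points where the miRNA was detected and open points where it was not, and the mean with its SD beside each group. miR-1224 and miR-689 sit highest on the 3 TEB arrays, miR-720 lowest on the 2 duct arrays, and miR-698, miR-702, miR-1196 and miR-1894-5p lowest on the 3 TEB arrays.

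A set of 4 dim miRNAs, miR-698, miR-702, miR-1196 and miR-1894-5p, passed as lower in TEBs than in stroma among the 167 tested miRNAs, but not when all 611 were tested (limma adjusted p = 0.053 for miR-702, 0.075 for miR-1196, 0.087 for miR-698 and 0.092 for miR-1894-5p). All 4 entered the tested list through ducts and stroma, where they were higher, so that the list itself favoured this direction. miR-1894-5p had unscaled signals of 5.5, 22.2 and 32.1 units on the TEB arrays, 130.4 and 68.1 on the duct arrays, and 59.1, 98.7 and 57.9 on the stroma arrays. miR-1196 had 5.9, 17.6 and 24.3 units in TEBs, 112.7 and 49.2 in ducts, and 46.4, 71.7 and 43.7 in stroma. In both, every TEB array lay below every other array, and duct and stroma arrays overlapped.

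miR-702 followed the same order, with 10.8, 18.9 and 22.6 units in TEBs, 84.8 and 41.3 in ducts, and 40.3, 63.2 and 35.2 in stroma. miR-698 had 2.3, 9.8 and 13.5 units in TEBs, 45.4 and 31.4 in ducts, and 27.5, 44.3 and 21.6 in stroma. These 4 were detected on every duct and stroma array, but on few TEB arrays: miR-702 and miR-1894-5p on 2 of 3, miR-1196 on 1 and miR-698 on none.

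Against stroma, miR-1894-5p was 5.26-fold lower in TEBs (log2 difference -2.39, SE 0.69, limma adjusted p = 0.02) and miR-1196 4.58-fold lower (-2.20, SE 0.59, limma adjusted p = 0.017). miR-702 was 3.20-fold lower (-1.68, SE 0.40, limma adjusted p = 0.012). For miR-698, undetected on all TEB arrays, the measured log2 difference was -2.40 (SE 0.68, limma adjusted p = 0.02), and since its TEB level is only a bound, the size of this difference depends on the floor: it was -1.49 with the floor at the lowest detected signal. Its measured log2 means were 2.74 in TEBs and 5.14 in stroma. Against ducts, all 4 had log2 differences of the same sign that did not pass: -2.08 for miR-1196 and -1.47 for miR-702 (limma adjusted p = 0.055 each), -2.22 for miR-1894-5p (0.066) and -2.13 for miR-698 (0.069).

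Leaving out stroma array 2 took away the calls of miR-1196, miR-1894-5p and miR-698 against stroma (limma adjusted p = 0.059, 0.068 and 0.065, differences of -1.96, -2.13 and -2.10), leaving out TEB array 1 shrank the differences of these 3 to -1.60, -1.64 and -1.63, and leaving out TEB array 3 brought all 4 under the threshold against ducts (0.041 to 0.047). Within the slide rows the TEB-stroma differences were -2.25 and -1.49 for miR-1196, -2.49 and -1.52 for miR-1894-5p, -2.61 and -1.49 for miR-698, and -1.56 and -1.35 for miR-702. The TEB-duct differences were much less alike between the rows: -3.09 and -0.63 for miR-1196, -3.19 and -0.70 for miR-1894-5p, -2.89 and -0.84 for miR-698, and -2.19 and -0.49 for miR-702. Every within-row value had the same sign.

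The signals of these 4 miRNAs moved with the spread of the array background. The distance from the 10th to the 90th percentile of the unscaled signals of undetected mouse miRNAs was 11.3, 14.9 and 18.6 units on the TEB arrays, 48.0 and 25.3 on the duct arrays, and 27.0, 32.3 and 20.4 on the stroma arrays. The TEB arrays had the narrowest background and duct array 1 the widest. All 4 miRNAs put the 8 arrays in one and the same order, from TEB array 1 up through TEB arrays 2 and 3, stroma 3, stroma 1, duct 2 and stroma 2 to duct 1, which is the order of the background widths with only duct 2 and stroma 1 exchanged. Their log2 signals correlated with each other at r = 0.959 to 0.995 over the 8 arrays. The pattern was not particular to the late-numbered miRNAs, since the closest tested miRNA to each of the 4 lay outside them. It was miR-294 for miR-698 (Pearson r = 0.997) and miR-1894-5p (0.998), let-7b* for miR-702 (0.998) and miR-197 for miR-1196 (0.999). Among the 22 control rows of the array, 2 are given here, chosen after their values were seen. The first (NC1_00000197) gave 11.9, 18.1 and 21.8 units on the TEB arrays, 37.9 and 27.8 on the duct arrays, and 25.9, 29.9 and 26.1 on the stroma arrays, with the 3 TEB arrays lowest and duct array 1 highest. The second (dmr_31a) gave -8.5, -10.6 and -14.7 units in TEBs, -37.6 and -19.0 in ducts, and -23.3, -26.2 and -14.1 in stroma, farthest below 0 on duct array 1. Other control rows did not have this order: the dark corner spots were lowest on stroma array 1 (9.3 units, beside 11.7 to 18.5 in TEBs), and NC2_00079215 gave 8.4, 4.7 and 8.2 units in TEBs and 2.2 on duct array 1. The part of the background in the differences of the 4 miRNAs was not tested.

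**Figure D4:**
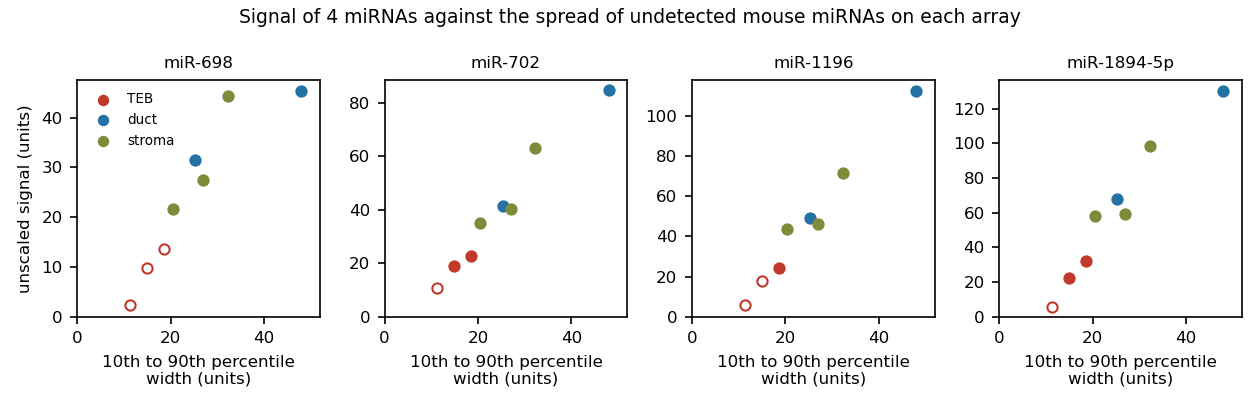
Unscaled signal of miR-698, miR-702, miR-1196 and miR-1894-5p (y axes, units) against the distance from the 10th to the 90th percentile of the signals of undetected mouse miRNAs on the same array (x axes, units), 1 point per array, filled where the miRNA was detected. In each panel the 3 TEB arrays lie at the lower left, at widths of 11.3 to 18.6 units, and duct array 1 at the upper right, at 48.0 units.

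The 5 remaining tested miRNAs passed in no comparison. miR-709, a miRNA known to be abundant in the nucleus, where it acts on the maturation of miR-15a and miR-16-1, had unscaled signals of 698.1, 785.0 and 897.4 units in TEBs, 1187.1 and 1114.9 in ducts, and 678.7, 628.2 and 745.7 in stroma. The duct arrays were above the rest before scaling, but the scaled means were 794.6 ± 125.7 in TEBs (SD, n = 3), 892.3 ± 2.9 in ducts (SD, n = 2) and 820.7 ± 170.5 in stroma (SD, n = 3), and the tissues overlapped.

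miR-1904 had 75.1, 40.5 and 72.3 units in TEBs, 72.2 and 41.3 in ducts, and 34.8, 27.5 and 53.7 in stroma. miR-1895 had 54.2, 43.8 and 58.9 units in TEBs, 71.3 and 81.4 in ducts, and 30.4, 21.6 and 42.6 in stroma, and was undetected on stroma array 2. For both, the scaled values of the tissues overlapped.

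miR-690 had 24.5, 34.0 and 17.4 units in TEBs (undetected on TEB array 3), 80.3 and 65.5 in ducts, and 70.6, 30.3 and 18.6 in stroma. Both duct arrays lay above the 3 TEB arrays, but the log2 difference of -1.21 (SE 0.45) did not pass (limma adjusted p = 0.079). It passed with the slide row as a covariate (-1.33, limma adjusted p = 0.037), without stroma array 1 (0.04), without scaling (0.049), with normexp (0.042) and in the methods' test before adjustment. miR-1892 had 23.4, 20.1 and 21.3 units in TEBs, 8.5 and 30.2 in ducts, and 6.2, -2.7 and 18.3 in stroma, and was detected on all 3 TEB arrays but on only 1 array each of ducts and stroma. Its TEB signals were close together while the 5 others spanned from below to above them.

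Over the 12 miRNAs, the adjusted p of the differences that did not pass ran from 0.055 to 0.7 between TEBs and ducts, from 0.15 to 0.86 between TEBs and stroma, and from 0.22 to 0.95 between ducts and stroma (limma). At an unadjusted limma p under 0.05 the counts were 8, 6 and 1 of 12, beside 82, 114 and 59 of all 167 tested miRNAs. A p that misses the threshold does not show that the levels were alike.

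**Figure D5:**
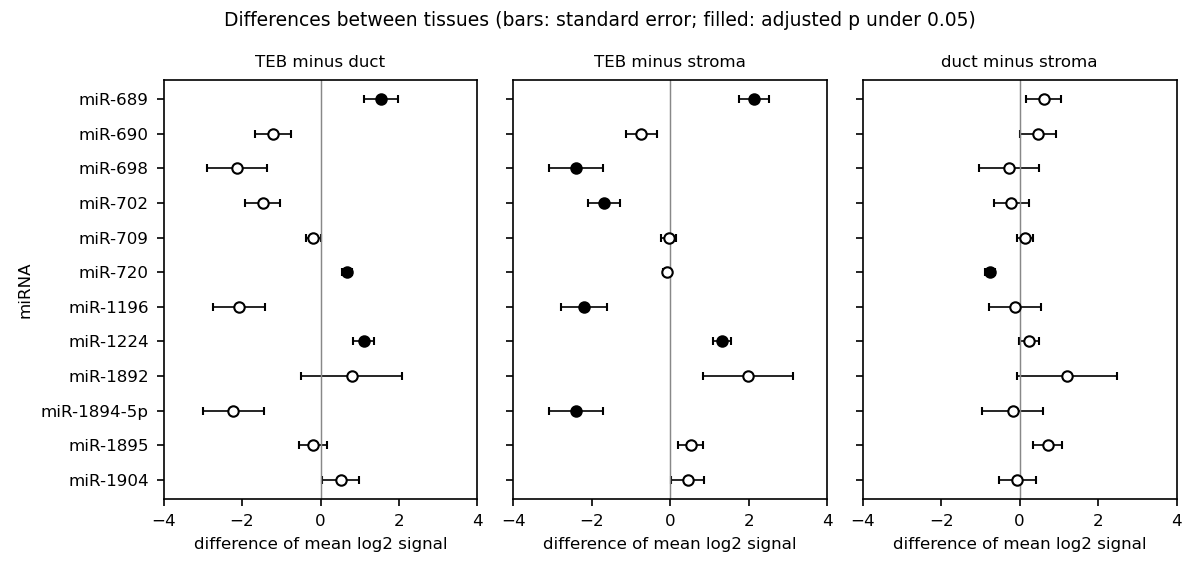
Difference of mean log2 scaled signal (x axes) of the 12 tested miRNAs (y axis) for TEBs minus ducts, TEBs minus stroma and ducts minus stroma, with bars for the standard error and filled points for a limma adjusted p under 0.05. The filled points are miR-689, miR-720 and miR-1224 in the first panel, miR-689, miR-698, miR-702, miR-1196, miR-1224 and miR-1894-5p in the second and miR-720 in the third.

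The 8 miRNAs detected on some arrays but on every array of no tissue were not tested. miR-697 was detected on TEB arrays 1 and 3, with unscaled signals of 34.1, 12.3 and 32.4 units in TEBs, 14.6 and 2.6 in ducts, and 8.0, 2.9 and 17.1 in stroma. miR-1897-5p was detected on TEB arrays 1 and 2 and duct array 2, with 20.9, 18.7 and 20.4 units in TEBs, 15.0 and 29.4 in ducts, and -5.2, -9.6 and 9.1 in stroma. Stroma was lowest for miR-1897-5p on all 3 arrays, while for miR-697 TEB array 2 lay among the others.

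The others with a flag in TEBs had it on TEB array 1 alone. The mirtron miR-877 had 19.7, 13.3 and 4.3 units in TEBs and signals below 0, from -20.5 to -7.9, on all duct and stroma arrays. miR-878-3p of the testis cluster had 22.6 units on TEB array 1 and 4.9 or less on every other array. miR-1906 had 14.4, 10.5 and 9.0 units in TEBs and at most 3.4 elsewhere. In miR-877 and miR-1906 the TEB arrays lay above all others, on values near the limit of detection.

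The remaining 3 were flagged only outside TEBs, and in all 3 the flag and the size of the signal did not go together. miR-764-5p had 0.2, 5.4 and 7.6 units in TEBs, 35.7 and 17.4 in ducts, and 17.2, 30.7 and 18.3 in stroma. Duct array 1, with the highest signal of 35.7 units and an error of 7.6, was not flagged as detected, whereas stroma array 3, with 18.3 units and an error of 3.5, was. miR-1190 had -0.7, 4.6 and 5.4 units in TEBs, 31.3 and 17.6 in ducts, and 15.5, 26.2 and 13.4 in stroma. It too was flagged at a lower signal (stroma array 2, error 7.3) and not at the highest (duct array 1, error 10.6). miR-1900 had 0.5, 3.0 and 6.2 units in TEBs, 43.9 and 16.7 in ducts, and 19.2, 29.8 and 17.4 in stroma, and was flagged on duct array 1 and stroma arrays 2 and 3, but not at the 19.2 units of stroma array 1, which lay above the flagged 17.4 of stroma array 3. All 3 were lowest on the TEB arrays and highest on duct array 1, the array with the widest background.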

How the data were processed

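The authors dephosphorylated total RNA, ligated it to Cy3-pCp and hybridised it to a single-colour Agilent mouse miRNA array. They deposited Agilent Feature Extraction 9.5.3 output: the background-subtracted total intensity of each miRNA, its error and a detection flag, with no normalization between arrays. A second deposited table holds log2 values, quantile-normalized (each array has a highest value of 16.51, and column medians are 0.14 to 1.48); how it was made is not given in the sources used here, and it served as an alternative. Groups follow the labelled tissue. Control rows (22) and viral miRNAs (39) were left out.

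Signals were scaled per array to the 75th percentile of the 108 mouse miRNAs with the flag on all 8 arrays, set to 1 where under 1, and log2-transformed. All 8 arrays entered 1 limma 3.58.1 fit in R 4.3.3 over the 167 miRNAs that at least 1 tissue showed on all of its arrays, with Benjamini-Hochberg adjustment in each comparison and a threshold of 0.05. The fit was first tested on simulated data. The row of each array on the slide was taken from its recorded scan position. Numbers detected were compared by exact permutation. Every late-numbered miRNA detected on every array of a tissue is named, and the others by their number of arrays. The miRNAs and lists were chosen with earlier results of these data known. Alternatives were other scalings, floors, background corrections, filters, covariates and tests, stricter or looser detection, and leaving out each array. The number of arrays limits the precision, and the deposited intensities hold no counts.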

Additional observations from a re-analysis of the deposited data

How the results depend on the processing

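Among the 15 log2 differences with an adjusted p under 0.1 no direction changed under any alternative run. miR-1224 and miR-689 remained higher in TEBs than in stroma in all 23 (limma adjusted p up to 0.019 and 0.029). The 3 late-numbered miRNAs that passed between TEBs and ducts became 8 without scaling (2 higher and 6 lower in TEBs, beside 12 and 63 of all 167), 7 with 16 added in place of the floor, 7 with the floor at the lowest detected signal, 5 with normexp, 5 with an intensity trend and robust estimation, and 1 without the filter on dim miRNAs, and ran from 0 to 5 when 1 array was left out (0 without TEB array 2 or duct array 1, 5 without TEB array 3). The 6 between TEBs and stroma became 2 among miRNAs detected on all 8 arrays, where only 5 could be tested, and 3 under the methods' t-test after Benjamini-Hochberg adjustment, and without the filter 7 of 107 (5 higher and 2 lower in TEBs), which no longer held the 4 dim miRNAs, and ran from 3 to 9 with 1 array left out (3 without stroma array 2, 9 without stroma array 3). The 1 between ducts and stroma became 0 under the 75th percentile of all mouse miRNAs (quantile normalization and the authors' table kept the count at 1) and 4 without scaling (all higher in ducts, beside 52 higher and 4 lower of all 167), and ran from 1 to 3 (3 without stroma array 3). Over the 167 miRNAs the methods' t-test gave 53, 108 and 47 at its unadjusted threshold (4, 6 and 1 of the late-numbered ones) and 12, 85 and 26 after adjustment (2, 3 and 1). For the other floors, normexp, the intensity trend, the filters and the arrays left out, counts over all tested miRNAs are not given here. The shifts under those alternatives therefore cannot be read as particular to the late-numbered miRNAs. The cause of these shifts was not tested.

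The labels do not say whether the replicate numbers pair the arrays. Deviations of same-numbered arrays correlated at -0.104 on average over 7 pairs (-0.51 to 0.362). Those of other arrays correlated at 0.052 over 14 (-0.497 to 0.51). These ranges overlap, and with so few arrays per tissue they cannot decide whether the arrays were paired. With a replicate block in the fit, 16, 108 and 31 of the 167 passed in place of 41, 108 and 36, and 1, 6 and 1 of the 12; miR-1224 and miR-689 then missed the threshold between TEBs and ducts (limma adjusted p = 0.086 each).

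For detection, requiring 5 times the signal's error lowered the miRNAs on all 8 arrays from 5 to 3. It gave 1 on every TEB array and no other in place of 0, namely miR-689, which has the flag on all 8 arrays. Requiring 3 times the error raised the miRNAs on every TEB array from 7 to 11. Counting a tissue by at least 1 of its arrays gave 16 for TEBs, 4 in TEBs only and 2 in stroma only. With 1 array left out, 17 to 20 miRNAs were detected, 5 to 7 on all arrays, 7 to 9 on every TEB array, 11 to 13 on every duct array and 10 to 12 on every stroma array, and 0 to 1 in TEBs only (1 without TEB array 2) and 0 to 1 in stroma only (1 without stroma array 1). Signals within an array's background width (11.3 to 48.0 units) are the least certain.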
